A study of Mus musculus with 6 samples.

Results

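The 32 genes described here make heme, break it down, move and store iron, or build iron-sulfur clusters. They were chosen by gene symbol for these roles, and all 32 were found among the 54532 genes of the deposited count table. Of these 32 genes, 30 held enough counts to be tested, among 13444 genes tested in all. The cells were 32D, a mouse line described as myeloblast-like that grows in medium with serum and mouse interleukin-3. The first group carried human U2AF1 with the S34F substitution (S34F, 3 libraries), and the second carried human wild-type U2AF1 (WT, 3 libraries). U2AF1 is a splicing factor that reads the 3′ end of introns, and S34F is a substitution found in myeloid malignancies. In both groups the human gene came from an MSCV-IRES-GFP retrovirus and was added to cells that still had their own mouse U2af1. There was no group without the virus, and whether the cells were clones or mixed populations is not given in the sources used here. Oxidative stress and DNA repair are the subjects that the series is titled after.

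Heme is an iron-holding ring that is built partly in mitochondria and partly in the cytosol, and free iron and free heme both feed the formation of reactive oxygen species. Cells take up transferrin-bound iron through the transferrin receptor Tfrc and store what they do not use inside ferritin, a shell of heavy (Fth1) and light (Ftl1) chains. The iron regulatory proteins Aco1 and Ireb2 bind hairpins called iron-responsive elements when iron is scarce. Binding in a 5′ untranslated region blocks translation, as in the ferritin messages, and binding in the 3′ untranslated region of Tfrc protects that message from decay. Mature red cell precursors are the main makers of heme in the marrow, and macrophages recycle it from old red cells.

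Library totals lay between 16509899 and 19129250 counts. By these totals 1 count equalled 0.0523 to 0.0606 CPM (counts normalised for the size of the library). By the same totals 3 counts, the limit that a count of 0 allows, equalled 0.157 to 0.182 CPM. The CPM values given below are also divided by scaling factors (TMM) of 0.957 to 1.03, so on their scale these limits differ slightly. WT replicates 2 and 3 stood apart from the other pairs by their closeness. The biological coefficient of variation was 3.16% for these 2 libraries, 16.4% to 21.4% for all other replicate pairs and 21.4% to 29.2% for pairs of an S34F with a WT library. A chi-square of 2.30 per degree of freedom put the difference between WT replicates 2 and 3 above sampling noise. That value cannot tell separate cultures from separate preparations of 1 culture. They were kept as separate libraries, and the calls depend on this choice. edgeR called 293 of 13444 genes with them separate and 20 of 13815 with them summed. No source says that the replicates came from separate cultures, and p-values then measure only the spread between these libraries. Mouse U2af1, whose counts could include reads of the human transgene, averaged 80.3 ± 19.9 CPM in S34F libraries and 71.1 ± 23.2 CPM in WT libraries (SD, n = 3 each).

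The letters of the iron-responsive elements are shown because the place of a site bears on the way iron acts on a message. The search motif was C, then 5 bases, then the loop CAGTGN, then 5 bases that pair with the 5 bases before the loop, G with T allowed, on the transcribed strand. It was read in the untranslated regions of coding transcripts of GENCODE release M21 (GRCm38, the same build as mm10). In 5′ untranslated regions 31 of 20597 genes held a match, or 0.151%, and 4 of the 32 members did, namely Fth1, Ftl1, Alas2 and Slc40a1. In 3′ untranslated regions 129 of 20995 genes held one, or 0.614%, and Tfrc was the only one of the 32 members, with 4 matches. Such a match describes letters and does not show that a protein was bound. The motif asks for 5 unbroken pairs and the loop CAGTGN, so elements of another shape would be missed. A member without a match may therefore still hold an element. Below are the sites of both ferritin chains at chr19:9982732-9982760 (plus strand) and chr7:45459779-45459807 (minus strand), then those of Tfrc in their order along the plus strand of chromosome 16, at 32631219 to 32631247, 32631598 to 32631626, 32631663 to 32631691 and 32631710 to 32631738. Each is written 5′ to 3′ as DNA, and the capitals mark the loop of 6 bases.
Fth1 5′ site: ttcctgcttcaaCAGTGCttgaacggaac
Ftl1 5′ site: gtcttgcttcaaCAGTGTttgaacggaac
Tfrc 3′ site 1: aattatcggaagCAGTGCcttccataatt
Tfrc 3′ site 2: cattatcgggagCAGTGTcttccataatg
Tfrc 3′ site 3: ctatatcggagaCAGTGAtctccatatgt
Tfrc 3′ site 4: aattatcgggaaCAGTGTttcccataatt
The 2 ferritin sites differ at 3 of 29 bases, and the Tfrc sites differ from one another at 4 to 11. Ferritin and Tfrc sites differ at 16 to 20 of the 29 bases.

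Between S34F and WT cells, the iron transporter Slc11a1 rose and was the only member that edgeR called, a call that was kept in 4 of 16 other settings. The heme-degrading enzyme Hmox1, the mitochondrial iron importer Slc25a37 and the ferritin chains had higher means in S34F libraries, and the regulator Ireb2 and the last heme synthesis enzyme Fech had lower ones, without passing the test. In edgeR's quasi-likelihood test, 1 of 30 members was called higher and 0 lower at an adjusted p under 0.05, beside 1.58% higher and 0.595% lower of all genes tested. That count is close to the background. At an unadjusted p under 0.05, 6 members were higher and 2 lower, beside 11.9% and 10.1% of all genes. DESeq2 called 4 higher (Ftl1, Hmox1, Slc11a1 and Slc25a37) and 1 lower (Ireb2), where it called 9.04% of all genes in either direction, and limma-voom called 0 in each, beside 2.01% of all genes. The 3 S34F libraries lay wholly above the WT libraries for 5 members and wholly below for 2, beside 14% and 13.1% of all genes. The fitted log2 fold change was above 0 in 19 of the 30, beside 50.1% of all genes, with a median of 0.12 beside 0.00. A p that misses the threshold does not show that a gene was unchanged.

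**Figure D1:**
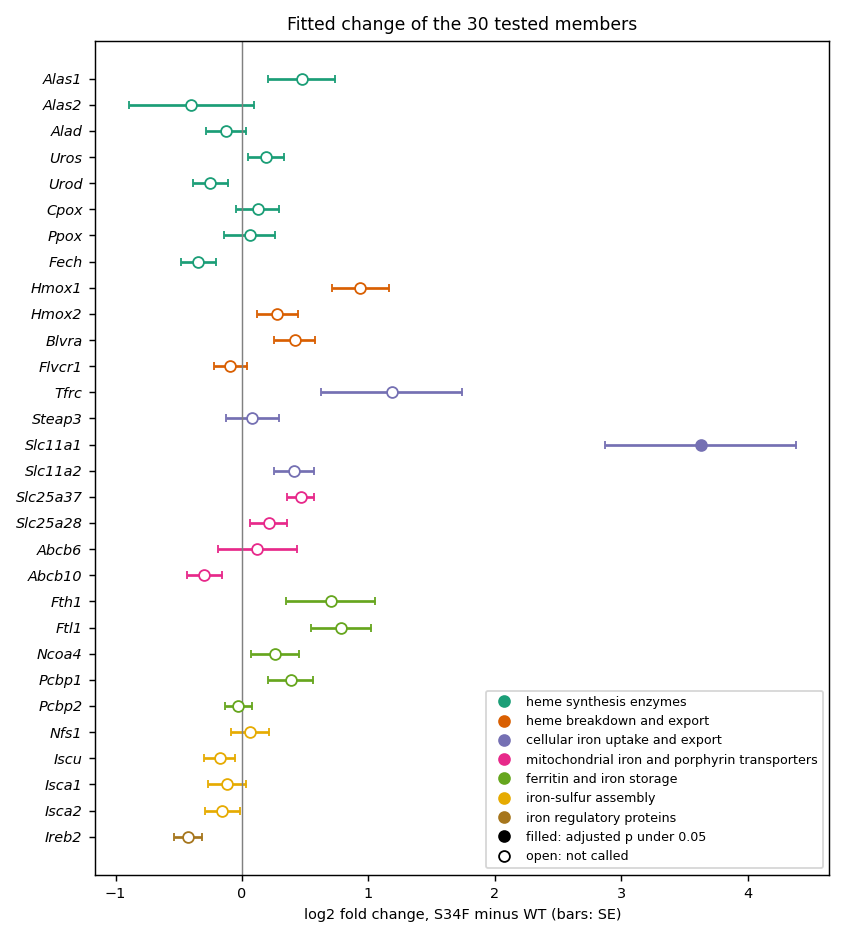
Fitted log2 fold change, S34F minus WT, of the 30 tested members, coloured and ordered by role, with bars of 1 SE. Slc11a1, the filled point at 3.63, is the only called member, and Tfrc, at 1.18, has the second widest bar.

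Per transcript length, ferritin stood far above every other member. With counts divided by all exon bases, Fth1 averaged 2484 ± 1077 TPM, a unit scaled to length and library size, and Ftl1 1926 ± 634 TPM over the 6 libraries (SD, both groups together). The iron chaperone Pcbp1 followed with 590 ± 104 TPM. The order after it differed between the groups, since Tfrc and Hmox1 averaged 216 and 213 TPM in S34F libraries, and 99.0 and 118 TPM in WT libraries, where Pcbp2 (162 TPM) and Alad (138 TPM) were higher. Among the enzymes of heme synthesis, Alad was highest with 128 ± 18.1 TPM, and Alas2, the erythroid form of the first enzyme, lowest with 1.02 ± 0.44 TPM. These values depend on the length that is used. With the median length of coding transcripts the 2 ferritin chains averaged 6673 and 1610 TPM, while Ncoa4 averaged 413 TPM by this length and 76.1 TPM by all exon bases. Fth1 had the 10th highest CPM of all genes, and ranked 32nd or 6th in TPM by the 2 lengths.

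**Figure D2:**
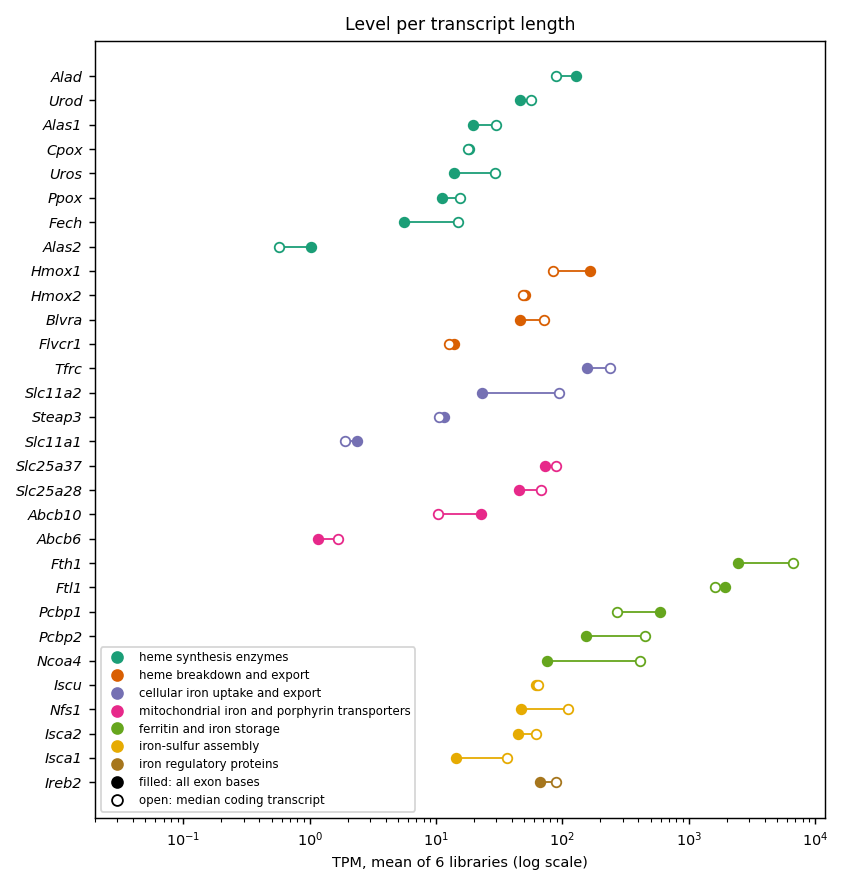
Mean TPM over the 6 libraries for each member with at least 0.1 TPM, on a log axis and coloured by role, with filled points for all exon bases and open points for the median coding transcript. Fth1 and Ftl1 stand above 1000 by either length, and Alas2, Abcb6 and Slc11a1 lie near 1 or 2.

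The only called member was 1 of the 5 genes of iron uptake and export. Slc11a1, a proton-coupled transporter that moves iron and manganese out of phagosomes and late endosomes and is best known from macrophages and neutrophils, rose 12.4-fold in S34F cells from a low base. It lies at chr1:74375195-74386062. S34F replicates 1 to 3 held 102, 164 and 17 counts of Slc11a1, against 8, 9 and 4 in WT replicates 1 to 3. On the CPM scale these were 5.76, 8.53 and 1.02 CPM in S34F libraries and 0.49, 0.53 and 0.22 CPM in WT libraries. Every S34F library lay above every WT library, and S34F replicate 3 was much lower than the other two. The means were 5.10 ± 3.80 CPM in S34F libraries and 0.411 ± 0.170 CPM in WT libraries (SD, n = 3 each), with a log2 fold change of 3.63 ± 0.75 (SE; edgeR adjusted p = 0.0497). In these bulk libraries, more cells that express the gene and more RNA per cell cannot be told apart.

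The call for Slc11a1 rested on each library but S34F replicate 3. The edgeR adjusted p was 0.157 without S34F replicate 1, 0.0820 without S34F replicate 2, and 0.0532, 0.192 and 0.206 without WT replicates 1, 2 and 3, and 0.0287 without S34F replicate 3. Over all 16 alternatives it ran from 1.72e-05 to 0.206. Its log2 fold change lay between 3.04 and 4.11 in these 6 fits. Of 16 macrophage markers listed beside it, 7 had 3 counts or fewer over all libraries. The 4 that could be tested had fitted changes above 0, beside 50.1% of all genes. edgeR called 1 (Fcgr1) higher, beside 1.58% of all genes. DESeq2 and limma-voom each called 2, beside 9.04% and 2.01% of all genes in either direction. The summed level of the list was 309 to 384 CPM in S34F libraries and 243 to 266 CPM in WT libraries. Most of it was Adgre1, which had a log2 fold change of 0.18 ± 0.13. The other 3 tested were higher with unadjusted p under 0.05 in edgeR, beside 11.9% of all genes. Their log2 fold changes were 1.47 ± 0.35 for Cd68, 1.44 ± 0.62 for Csf1r and 1.35 ± 0.25 for Fcgr1. The groups did not overlap for Cd68 and Fcgr1. They overlapped for Csf1r (edgeR adjusted p = 0.217). Csf1r had 4.84 CPM in S34F replicate 3, below WT replicates 1 and 3 (10.3 and 5.68 CPM). The part of these markers in the rise of Slc11a1 was not tested.

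Tfrc, the receptor for transferrin at chr16:32608920-32632794, varied widely among the S34F libraries. It had 328, 763 and 168 CPM in S34F replicates 1 to 3, against 283, 132 and 139 CPM in WT replicates 1 to 3. S34F replicate 2 was by far the highest, S34F replicate 3 lay below WT replicate 1, and the groups overlapped. The log2 fold change of 1.18 ± 0.56 did not pass (edgeR adjusted p = 0.272), and leaving out 1 library gave 0.43 for S34F replicate 2, 1.56 for S34F replicate 3 and 1.63 for WT replicate 1. Slc11a2, the transporter that carries iron out of endosomes after transferrin uptake, had 56.5, 54.2 and 45.8 CPM in S34F libraries and 47.7, 34.1 and 36.0 CPM in WT libraries. Its groups overlapped by S34F replicate 3 and WT replicate 1, and the log2 fold change was 0.41 ± 0.16 (edgeR adjusted p = 0.175). The adjusted p was 0.0397 without WT replicate 1, a fit that called 8.51% of all genes. Steap3, a ferrireductase of endosomes, lay between 15.3 and 24.3 CPM in S34F libraries and between 17.6 and 23.8 CPM in WT libraries (log2 fold change 0.08 ± 0.21). The iron exporter Slc40a1, also called ferroportin, had 0 counts in all 6 libraries.

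**Figure D3:**
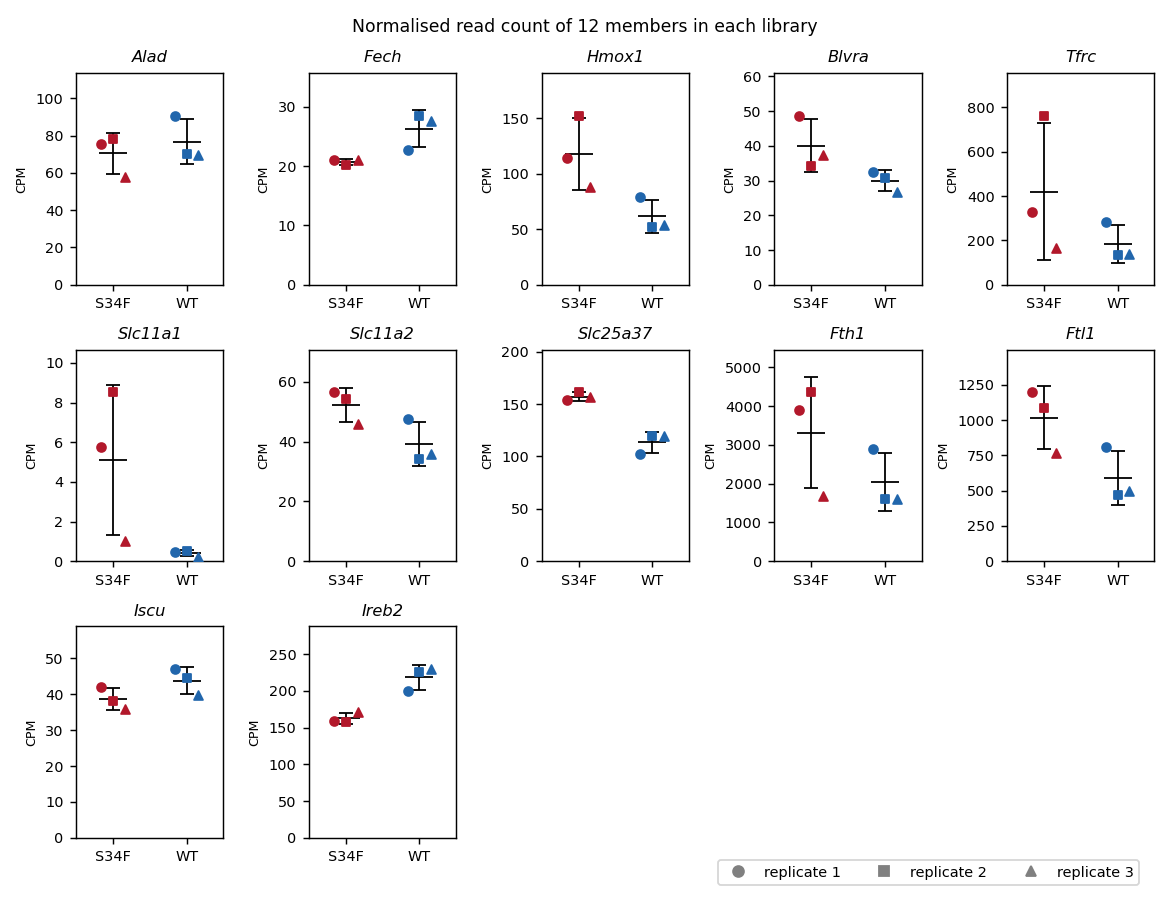
TMM-normalised CPM of 12 members in each library, with S34F libraries in red on the left and WT libraries in blue on the right of each panel, and with the mean and SD in black. Slc25a37, Hmox1, Slc11a1 and Blvra do not overlap with S34F higher, Fech and Ireb2 do not overlap with S34F lower, and Tfrc spreads from 168 to 763 CPM within S34F.

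Ferritin messages averaged higher in S34F libraries, with overlap between the groups for both chains. Fth1, the heavy chain that oxidises iron for storage (chr19:9980598-9985098), had 3898, 4364 and 1692 CPM in S34F replicates 1 to 3, against 2907, 1602 and 1613 CPM in WT replicates 1 to 3. S34F replicate 3 was close to WT replicates 2 and 3, and WT replicate 1 lay between these 3 and S34F replicates 1 and 2. Ftl1, the light chain that helps the mineral core form (chr7:45457944-45459884), had 1199, 1083 and 770 CPM in S34F libraries and 807, 468 and 495 CPM in WT libraries. Only S34F replicate 3 and WT replicate 1 crossed over. The log2 fold changes were 0.70 ± 0.36 for Fth1 (edgeR adjusted p = 0.288) and 0.79 ± 0.24 for Ftl1 (edgeR adjusted p = 0.114), and neither passed. Fth1 gave 0.46 without S34F replicate 2 and 1.05 without WT replicate 1. DESeq2 gave an adjusted p of 0.0195 for Ftl1 and 0.164 for Fth1. Without WT replicate 1 edgeR gave 0.0244 and 0.113, in a fit that kept only the close WT pair and called 8.51% of all genes. Over the 16 alternatives the adjusted p ran from 0.00783 to 0.360 for Ftl1 and from 0.113 to 0.629 for Fth1. Together the 2 chains took 0.487%, 0.548% and 0.247% of all counts in S34F libraries and 0.365%, 0.213% and 0.215% in WT libraries.

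Genes that respond quickly to handling of cells, such as Fos and Junb, were measured beside these. Their summed level over 13 genes was 1939, 1505 and 1120 CPM in S34F replicates 1 to 3, against 2046, 833 and 848 CPM in WT replicates 1 to 3. Much of this sum was Hspa8, a constitutive chaperone, with 1248, 637 and 700 CPM in S34F libraries and 1342, 527 and 525 CPM in WT libraries. S34F replicates 1 and 2 and WT replicate 1 were the 3 highest libraries for the sum, for Fth1, Ftl1 and Tfrc, and for 4 of the 9 handling genes tested (Fos, Junb, Egr1 and Ier2). The other 5 had other orders, and 1 of them (Jund) was called higher. Of all genes tested, 6.55% had these 3 libraries highest and 1.58% were called higher. The part of the handling genes in the spread of ferritin and Tfrc was not tested. The ratio of Fth1 to Ftl1 counts was 3.25, 4.03 and 2.20 in S34F libraries and 3.60, 3.42 and 3.26 in WT libraries, so it varied more within S34F and overlapped between the groups.

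Near-identical copies can share reads with the ferritin genes. The copy with the most counts, Ftl1-ps1, had 20.4, 18.98 and 13.0 CPM in S34F libraries and 13.4, 8.25 and 9.30 CPM in WT libraries, far below Ftl1. Like Ftl1, it was lowest in WT replicates 2 and 3. Fth-ps2 had 20 counts in all S34F libraries together and 39 in all WT libraries together. Exons of Gm10252 on the opposite strand, with 154 counts over all libraries, covered 26.5% of the exon bases of Ftl1.

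Of the other 3 storage genes, edgeR, DESeq2 and limma-voom each called 0, and 0 had an unadjusted p under 0.05 in edgeR. Ncoa4, the receptor that delivers ferritin to autophagosomes, had 171, 302 and 242 CPM in S34F libraries and 189, 207 and 200 CPM in WT libraries (log2 fold change 0.26 ± 0.19, and 0.057 without S34F replicate 2). Pcbp1 and Pcbp2 bind RNA and also hand iron to ferritin. Pcbp1 lay between 309 and 465 CPM in S34F libraries and between 258 and 348 CPM in WT libraries, with a log2 fold change of 0.39 ± 0.18. Pcbp2 lay between 229 and 267 CPM in S34F libraries and between 242 and 255 CPM in WT libraries, with a log2 fold change of -0.03 ± 0.11. Exons of Map3k12 on the opposite strand covered 30.2% of the exon bases of Pcbp2, and without the strand setting of the counting their reads cannot be told apart.

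The iron regulatory proteins were represented by Ireb2 alone. Aco1, also called IRP1, had 1 count in all 6 libraries together. Ireb2, or IRP2, which is degraded when iron is plentiful (chr9:54863789-54912530), had 160, 157 and 171 CPM in S34F replicates 1 to 3, against 199, 226 and 230 CPM in WT replicates 1 to 3. All 3 S34F libraries lay below all 3 WT libraries, and the spread within S34F was small. The means were 163 ± 7.44 CPM in S34F libraries and 219 ± 16.7 CPM in WT libraries (SD, n = 3 each). The log2 fold change was -0.43 ± 0.11, with an unadjusted p of 0.00340 in edgeR and an adjusted p of 0.0777, and it was -0.21 ± 0.10 once each library's trend with GC content was removed (edgeR adjusted p = 0.306). DESeq2 called it (adjusted p = 0.00978), as did edgeR without WT replicate 1 (adjusted p = 0.0296), a setting that called 8.51% of all genes. Over the 16 alternatives its adjusted p ran from 0.00978 to 0.312.

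Among the mitochondrial transporters of iron and porphyrins, Slc25a37 differed most. Slc25a37, or mitoferrin-1, brings iron into mitochondria and is best known from erythroid cells (chr14:69241848-69285112). It had 154, 161 and 156 CPM in S34F replicates 1 to 3, against 102, 119 and 120 CPM in WT replicates 1 to 3. The groups did not overlap, and the S34F libraries differed little among themselves. With means of 157 ± 4.01 CPM in S34F libraries and 114 ± 10.1 CPM in WT libraries (SD, n = 3 each), the log2 fold change was 0.47 ± 0.11, a 1.38-fold difference (unadjusted p = 0.00200 and adjusted p = 0.0662 in edgeR). DESeq2 called it (adjusted p = 0.00445) and limma-voom did not (adjusted p = 0.0664). edgeR called it without WT replicate 1 (adjusted p = 0.0419), a fit that kept only the close WT pair and called 8.51% of all genes. Over the 16 alternatives its adjusted p ran from 0.00445 to 0.233.

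Its relative Slc25a28, or mitoferrin-2, which serves other cell types, had 55.2, 58.9 and 54.7 CPM in S34F libraries and 59.2, 41.9 and 44.7 CPM in WT libraries. WT replicate 1 was the highest of all, and the log2 fold change was 0.21 ± 0.15. Counts of Slc25a37 stood to those of Slc25a28 as 2.78, 2.74 and 2.86 in S34F libraries and 1.73, 2.85 and 2.68 in WT libraries, so that WT replicate 1 alone was low. Abcb10, which partners mitoferrin-1 in the inner membrane, had 30.4, 24.4 and 26.1 CPM in S34F libraries and 36.9, 32.3 and 30.2 CPM in WT libraries (log2 fold change -0.30 ± 0.14, edgeR adjusted p = 0.261). Abcb6, a porphyrin transporter, lay between 1.37 and 2.39 CPM in S34F libraries and between 1.73 and 1.89 CPM in WT libraries (log2 fold change 0.12 ± 0.31). Exons of Gm29253 on the same strand covered 55.2% of the exon bases of Abcb6, and Gm29253 had 0 counts. Whether reads of Abcb6 went uncounted there was not tested. edgeR and limma-voom called 0 of these 4 transporters, DESeq2 called 1, and 1 had an unadjusted p under 0.05 in edgeR.

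The 8 enzymes of heme synthesis were mixed in direction, with 4 fitted changes above 0 and 4 below. edgeR, DESeq2 and limma-voom each called 0 of them, and 1 (Fech) had an unadjusted p under 0.05 in edgeR. Alas1, the housekeeping form of the first and rate-setting enzyme, had 57.8, 45.6 and 26.6 CPM in S34F replicates 1 to 3, against 38.6, 29.3 and 25.9 CPM in WT replicates 1 to 3. S34F replicate 3 lay among the WT libraries, and the log2 fold change was 0.47 ± 0.27 (edgeR adjusted p = 0.338). Leaving out S34F replicate 1 gave 0.20, and leaving out S34F replicate 3 gave 0.73. Alas2 had 0.339, 0.468 and 1.13 CPM in S34F libraries and 0.730, 1.001 and 0.811 CPM in WT libraries, and exons of Apex2 on the opposite strand covered 12.9% of its exon bases. Alad, which joins the first product into a pyrrole, had 75.6, 78.0 and 57.6 CPM in S34F libraries and 90.7, 69.9 and 69.6 CPM in WT libraries (log2 fold change -0.12 ± 0.16).

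The middle of the pathway showed small differences. Uros, which closes the ring, lay between 16.2 and 16.5 CPM in S34F libraries and between 13.8 and 15.3 CPM in WT libraries, without overlap, at a log2 fold change of 0.19 ± 0.14 (edgeR adjusted p = 0.458). Urod, which trims the side chains, lay between 28.8 and 37.3 CPM in S34F libraries and between 36.0 and 43.1 CPM in WT libraries (log2 fold change -0.25 ± 0.14). The oxidases Cpox and Ppox had log2 fold changes of 0.13 ± 0.17 and 0.06 ± 0.20, and exons of B4galt3 on the opposite strand covered 17.5% of those of Ppox. Fech, which inserts iron into the finished ring, had 20.9, 20.1 and 21.0 CPM in S34F replicates 1 to 3, against 22.7, 28.5 and 27.6 CPM in WT replicates 1 to 3. The S34F libraries were nearly equal and all below WT, with WT replicate 1 nearest to them. The log2 fold change of -0.34 ± 0.14 had an unadjusted p of 0.0359 and an adjusted p of 0.195 in edgeR.

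Breakdown of heme was led by Hmox1, the inducible heme oxygenase, which opens the ring and frees the iron and is widely used as a sign of oxidative stress (chr8:75093621-75100589). It had 114, 153 and 88.1 CPM in S34F replicates 1 to 3, against 79.1, 52.0 and 54.2 CPM in WT replicates 1 to 3. All 3 S34F libraries lay above all 3 WT libraries, with S34F replicate 3 and WT replicate 1 closest. The means were 118 ± 32.4 CPM in S34F libraries and 61.8 ± 15.1 CPM in WT libraries (SD, n = 3 each), a 1.92-fold difference. The log2 fold change was 0.94 ± 0.23, with an unadjusted p of 0.00262 and an adjusted p of 0.0710 in edgeR. DESeq2 called it (adjusted p = 0.00273) and limma-voom did not (adjusted p = 0.0725). edgeR called it without WT replicate 1 (adjusted p = 0.0256), a fit that kept only the close WT pair and called 8.51% of all genes. Over the 16 alternatives its adjusted p ran from 0.00273 to 0.257. In this group of 4 genes edgeR and limma-voom called 0 and DESeq2 1, and 2 had an unadjusted p under 0.05 in edgeR.

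Hmox2, the constitutive heme oxygenase, had 35.8, 40.2 and 38.9 CPM in S34F libraries and 39.6, 27.98 and 27.0 CPM in WT libraries. Its log2 fold change was 0.28 ± 0.17 (edgeR adjusted p = 0.354). The adjusted p was 0.0469 without WT replicate 1, a fit that called 8.51% of all genes. Exons of Cdip1 on the opposite strand covered 40.2% of the exon bases of Hmox2. Hmox1 counts stood to Hmox2 counts as 3.19, 3.80 and 2.26 in S34F libraries and 1.998, 1.86 and 2.01 in WT libraries, without overlap. Blvra, which turns biliverdin into bilirubin, had 48.8, 34.1 and 37.4 CPM in S34F libraries and 32.5, 30.8 and 26.8 CPM in WT libraries. Its groups did not overlap either, and the log2 fold change was 0.42 ± 0.16 (unadjusted p = 0.0294 and adjusted p = 0.177 in edgeR). It was 0.25 without S34F replicate 1. Flvcr1, known as a heme exporter, lay between 20.1 and 22.9 CPM in S34F libraries and between 21.6 and 23.9 CPM in WT libraries (log2 fold change -0.09 ± 0.13).

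The 4 genes of iron-sulfur assembly had fitted log2 fold changes between -0.18 and 0.06. edgeR, DESeq2 and limma-voom each called 0, and 0 had an unadjusted p under 0.05 in edgeR. Iscu, the scaffold on which clusters are built, had 42.1, 38.2 and 36.0 CPM in S34F replicates 1 to 3, against 47.1, 44.5 and 39.8 CPM in WT replicates 1 to 3, and the groups overlapped (log2 fold change -0.18 ± 0.12, edgeR adjusted p = 0.431). Nfs1, which supplies the sulfur, had a log2 fold change of 0.06 ± 0.15. The carrier proteins Isca1 and Isca2 had log2 fold changes of -0.12 ± 0.15 and -0.16 ± 0.14.

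Across roles, the libraries of a group did not move as a block. S34F replicate 1 held the highest value for 9 of the 30 tested members, S34F replicate 2 for 8 and S34F replicate 3 for 2, against 7, 1 and 3 for WT replicates 1 to 3. Over all genes tested each library held the highest value for 15.1% to 18.96% of genes. S34F replicates 1 and 2 and WT replicate 1 were the 3 highest libraries for 10 members, or 33.3%, beside 6.55% of all genes. The 10 were Alas1, Alad, Tfrc, Slc11a2, Slc25a28, Abcb6, Fth1, Ftl1, Pcbp1 and Isca1. These 3 libraries were picked after their values were seen, so the share is a description.

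**Figure D4:**
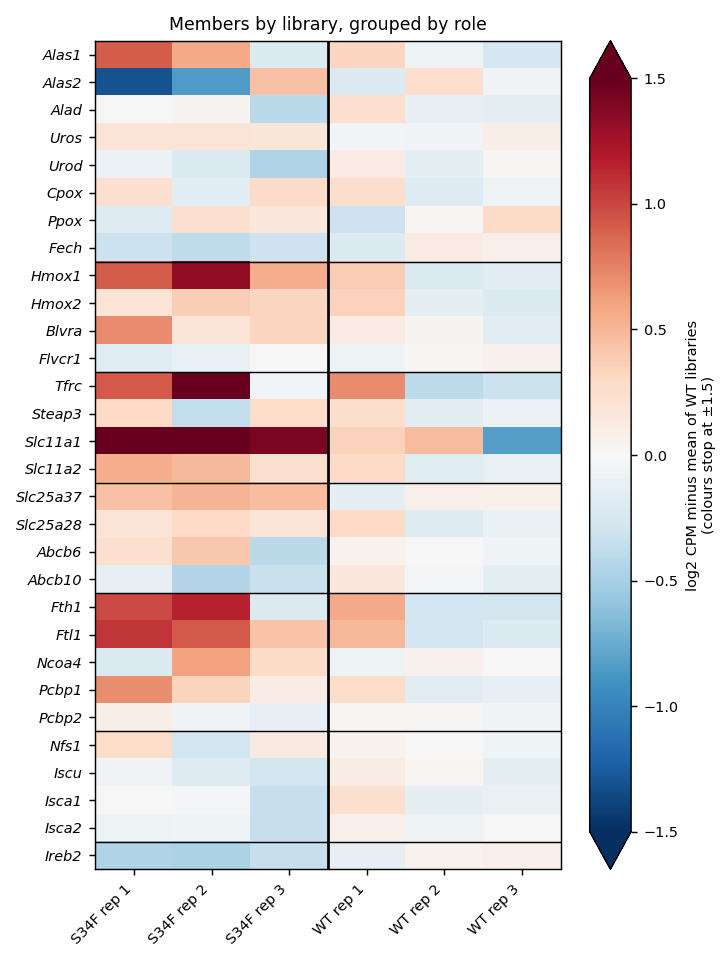
Log2 CPM of each tested member in each library minus the mean of the WT libraries, with S34F libraries left of the black line, WT libraries right of it and genes in order of role. Slc11a1, Hmox1 and Slc25a37 are raised in all 3 S34F libraries and Ireb2 and Fech lowered, while Fth1, Tfrc and Alas1 are raised in S34F replicates 1 and 2 and in WT replicate 1.

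Under 16 other settings of the fit, Slc11a1, Hmox1, Ftl1 and Slc25a37 stayed above 0 and Ireb2 below, while their calls came and went.

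**Figure D5:**
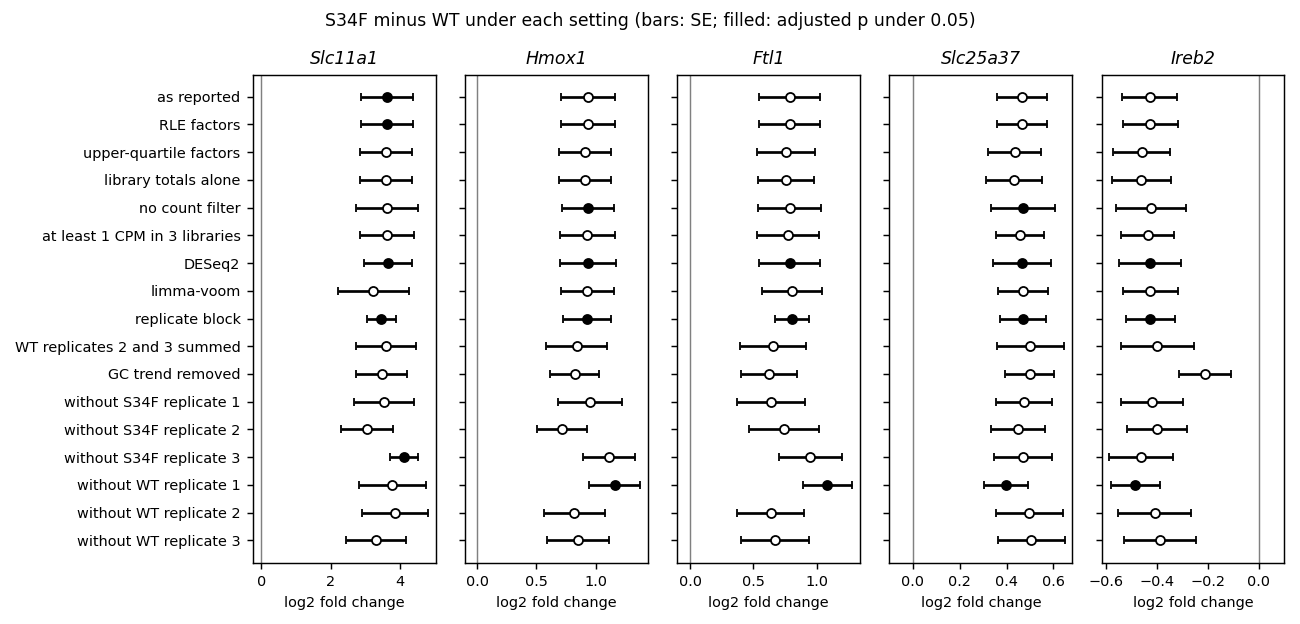
Fitted log2 fold change, S34F minus WT, of 5 members as reported and under each of 16 other settings, with bars of 1 SE and filled points where the adjusted p was under 0.05. No point crosses 0, and the point of Ireb2 moves from -0.43 to -0.21 when the trend with GC content is removed.

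Other genes of the same pathways were counted in the same way. Of 79 listed symbols 74 were in the table and 58 were tested, of which 39 had a fitted change above 0, beside 50.1% of all genes, with a median log2 fold change of 0.14, beside 0.00. edgeR called 2 higher and 1 lower of the 58, beside 1.58% and 0.595% of all genes. Lcn2, which binds iron-carrying siderophores and is also a neutrophil granule protein, rose to 629, 667 and 385 CPM in S34F replicates 1 to 3, against 100, 79.1 and 82.6 CPM in WT replicates 1 to 3 (log2 fold change 2.68 ± 0.22, edgeR adjusted p = 0.00292). Nfu1, which passes iron-sulfur clusters to lipoate synthase and other targets, rose to 47.6, 47.6 and 52.8 CPM in S34F libraries, against 27.0, 31.6 and 30.5 CPM in WT libraries (log2 fold change 0.73 ± 0.12, edgeR adjusted p = 0.0276). Eif2ak1, the kinase that slows translation when heme is short, fell to 93.2, 96.5 and 89.1 CPM in S34F libraries, against 136, 129 and 124 CPM in WT libraries (log2 fold change -0.48 ± 0.10, edgeR adjusted p = 0.0497). In each of these 3 genes the groups did not overlap. Without WT replicate 2 the edgeR adjusted p was 0.229 for Eif2ak1 and 0.117 for Nfu1, and without WT replicate 3 it was 0.200 and 0.127. Without S34F replicates 1, 2 and 3 it was 0.153, 0.0622 and 0.145 for Eif2ak1, and 0.0854, 0.0389 and 0.0876 for Nfu1. By role, edgeR called 0 higher and 1 lower of 16 other heme genes, 1 higher and 0 lower of 16 other iron genes, and 1 higher and 0 lower of 26 other iron-sulfur genes. DESeq2 called 6 higher and 1 lower over the 58 genes, beside 9.04% of all genes in either direction, and limma-voom 2 and 0, beside 2.01%.

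Markers of the cells that the culture could hold were measured alongside. Of all genes tested, 50.1% had a fitted change above 0, and edgeR called 1.58% higher and 0.595% lower. DESeq2 called 9.04% and limma-voom 2.01% in either direction. An unadjusted p under 0.05 in edgeR was found for 11.9% higher and 10.1% lower. The counts below, each over few genes, are to be read beside these shares. Of 20 erythroid markers 7 could be tested, edgeR called 0 of them, 1 (Rhd) had an unadjusted p under 0.05 and was called by DESeq2, and limma-voom called 0. Hba-a2 and Slc4a1 had 0 counts, and 11 markers had 3 counts or fewer over all libraries. The summed level of the erythroid markers was 299 to 382 CPM in S34F libraries and 307 to 415 CPM in WT libraries. Most of that sum was Nfe2 and Tal1, with log2 fold changes of -0.21 ± 0.20 and -0.02 ± 0.14. Of 12 neutrophil markers 5 were tested and 1 (Lcn2) was called higher, with a summed level of 392 to 690 CPM in S34F libraries and 92.3 to 112 CPM in WT libraries, most of it Lcn2 itself. Of 12 myeloid progenitor markers 9 were tested and 7 had fitted changes above 0. Myb and Prtn3 lay below 0, with log2 fold changes of -0.39 ± 0.21 and -0.40 ± 0.22. edgeR called 1 (Spi1) higher, DESeq2 3 and limma-voom 1, and each called 0 lower, while Cebpa had 0 counts and Kit 3. Their summed level was 1940 to 2404 CPM in S34F libraries and 1787 to 1906 CPM in WT libraries. Of 11 mast cell and basophil markers 2 were tested; edgeR, DESeq2 and limma-voom called 0 and 0 had an unadjusted p under 0.05, the smallest p being that of Mcpt8. Their summed level was 429 to 530 CPM in S34F libraries and 395 to 470 CPM in WT libraries. Most of it was Gata2, which had a log2 fold change of 0.15 ± 0.13. The part of these markers in the values of the members was not tested.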

How the data were processed

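Messenger RNA of 32D cells was sequenced in 3 S34F and 3 WT libraries made with a directional kit, per the labels' protocols. The authors deposited a table of raw read counts, as whole numbers, for Ensembl genes. Per the submitters' processing notes, reads went through HISAT2 and featureCounts on mm10. Not given in the sources used here are versions, the strand setting and the treatment of reads with several matches. Columns were matched to samples by name, and groups came from the sample titles.

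The deposited symbols were used, and 27 that had become dates were restored through their gene IDs. Coordinates, exon lengths and GC content came from GENCODE M21, which held 54495 of the 54532 gene IDs. The test was edgeR's robust quasi-likelihood F test (edgeR 4.0.16, R 4.3.3), two-sided, after filterByExpr and TMM scaling, with genotype as the only term and 4 residual degrees of freedom. Benjamini-Hochberg adjustment ran over all 13444 genes tested, with calls under 0.05. SE is the absolute fitted log2 change over the root of F, and CPM values are TMM-normalised. TPM was computed from counts and length and is used only for levels between genes. The procedure was tested on simulated counts. It called 7 of 64 genes changed 1.5-fold, 39 of 69 changed 2-fold and 56 of 67 changed 4-fold. It also called 11 unchanged genes, so small changes were mostly missed and some calls were false.

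Values are given for every library for 12 members. These passed the test, had an unadjusted p under 0.05, had groups apart by at least 1.3-fold, or were highest per length in their role. A few other members were added for context. Of the other lists the called genes are named, or the gene with the smallest p. The members, lists, tests and rules were chosen with earlier results of these data known. Alternatives changed the tool (DESeq2 1.42.0 or limma-voom in limma 3.58.1), the scaling (RLE, upper-quartile or library totals alone) or the filter (none, or 1 CPM in 3 libraries). Others took the replicate number as a block, summed WT replicates 2 and 3, removed each library's loess trend with GC content (span 0.5), or left out each library. Intervals of counts were not used, and floors cover counting error only. Python 3.11.15 and matplotlib 3.10.9 drew the figures.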

Additional observations from a re-analysis of the deposited data

How the results depend on the processing

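Of the 30 tested members, 23 kept the direction of their fitted change under every alternative that gave a value, which was all 16 except for Alas2, which had 15 because it fell under the filter of 1 CPM in 3 libraries. The other 7 were small and uncalled throughout. Removal of the GC trend gave log2 fold changes of -0.050 for Ppox, -0.0092 for Steap3, -0.0013 for Abcb6, 0.082 for Pcbp2 and -0.0074 for Nfs1, and the cause was not tested. With each library left out in turn it ran from -0.20 to 0.019 for Alad, -0.075 to 0.22 for Ppox, -0.038 to 0.27 for Steap3, -0.038 to 0.32 for Abcb6, -0.10 to 0.021 for Pcbp2, -0.068 to 0.21 for Nfs1 and -0.19 to 0.019 for Isca1. Leaving out 1 library moved the log2 fold change by over 1.5 times in 21 of the 30, and in none of Uros, Fech, Hmox1, Slc11a1, Slc11a2, Slc25a37, Abcb10, Ftl1 and Ireb2.

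Members called higher numbered 1 as reported. The count was 0 with upper-quartile factors, library totals alone, at least 1 CPM in 3 libraries, limma-voom, WT replicates 2 and 3 summed or the GC trend removed, 2 (Hmox1 and Slc25a37) with no count filter, 4 with DESeq2, and 0 to 5 with each library left out. It was 5 without WT replicate 1 (Ftl1, Hmox1, Hmox2, Slc11a2 and Slc25a37), a fit that called 8.51% of all genes. Members called lower numbered 0 as reported, 1 (Ireb2) with DESeq2, and 0 to 1 with each library left out. Other pathway genes called higher numbered 2 as reported, 6 with DESeq2, 1 with WT replicates 2 and 3 summed and 1 to 6 with each library left out. Those called lower numbered 1 as reported, 0 with RLE factors, limma-voom, the WT pair summed or the GC trend removed, and 0 to 2 with each library left out. Marker genes called higher numbered 4 as reported, 2 with upper-quartile factors or library totals alone, 8 with DESeq2, 1 with the WT pair summed or the GC trend removed and 1 to 10 with each library left out. All genes called numbered 293 as reported, 1216 with DESeq2, 763 with no count filter, 20 with the WT pair summed and 154 with the GC trend removed. They numbered 20, 337 and 50 without S34F replicates 1 to 3, and 1177, 19 and 22 without WT replicates 1 to 3. The biological coefficient of variation of the WT pair left in these last 3 fits was 3.16%, 21.3% and 21.4%. The causes were not tested.

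Whether the replicate numbers pair the samples is not given by the labels, and these data did not settle it. Deviations of same-numbered libraries correlated at 0.332, 0.159 and 0.0719 for replicates 1 to 3. S34F replicate 1 correlated at -0.259 and -0.243 with WT replicates 2 and 3. S34F replicate 2 correlated at 0.153 with WT replicate 3, and S34F replicate 3 correlated best with WT replicate 2 (0.0801). WT replicates 2 and 3 were too alike to be told apart in this way. With the replicate number as a block, members called higher numbered 5 (Ftl1, Hmox1, Pcbp1, Slc11a1 and Slc25a37) and lower 1 (Ireb2), other pathway genes higher 4, marker genes higher 7 and all genes 1418.

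The adjusted p of Slc11a1 was 0.0511 with upper-quartile factors, 0.0536 with library totals alone, 0.121 with no count filter, 0.123 with limma-voom, 1.72e-05 with DESeq2 and 0.184 with the WT pair summed. It was called in 4 of 16 alternatives, Eif2ak1 in 7, Nfu1 in 11 and Lcn2 in 16. Depth limits Slc11a1, with 21 counts in all WT libraries, and Alas2, and leaves Slc40a1 and Aco1 without a test.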

Other observations

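Aco1 lies on chromosome 4 among genes of mixed level. Of 19 other coding genes within 1 megabase of it, 14 had between 226 and 24611 counts over the 6 libraries, and the other 5 had at most 36. The nearest, Ddx58, lay 5435 bases away and had 7651 counts. Aco1, at chr4:40143081-40198338, had 1 count, in S34F replicate 2.

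Hp, which encodes the hemoglobin-binding protein haptoglobin, and Cp, which encodes the ferroxidase ceruloplasmin, were chosen after their values were seen. Hp had 31.4, 145 and 6.69 CPM in S34F replicates 1 to 3, against 32.8, 7.60 and 7.30 CPM in WT replicates 1 to 3. Cp had 189, 425 and 272 CPM in S34F libraries and 107, 180 and 187 CPM in WT libraries, without overlap, and its log2 fold change of 0.90 ± 0.30 did not pass (edgeR adjusted p = 0.138).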
